A study of Mus musculus with 6 samples.

Results

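The S100 calcium-binding proteins are a family of small EF-hand proteins, and 10 of its genes were examined here by their gene names in the deposited table of 55401 genes: S100a1, S100a4, S100a6, S100a8, S100a9, S100a10, S100a11, S100a13, S100a16 and S100b. S100 proteins mostly form dimers. On binding calcium they open a surface that docks partner proteins such as annexins, myosin heavy chains and chaperone adaptors. Some of them are also released from cells and act there on RAGE or TLR4. S100a8 and S100a9, the calgranulins of neutrophils and monocytes, do so as the heterodimer calprotectin. The RNA came from mesenchymal stromal cells of C57/B6J mice, flushed from the femoral marrow and grown in serum-containing culture as plastic-adherent connective tissue progenitors. After 24 h with 3 µg/mL lipopolysaccharide (LPS), the bacterial ligand of TLR4, 3 libraries of Nlrp3 knockout cells with LPS (NLRP3-/-, lacking an inflammasome sensor) were set against 3 libraries of wild-type (WT) cells. The sources used here give neither how the allele was made nor the age of the mice. They do not say that replicates were separate animals or cultures, so the p-values reflect the variation among these 6 libraries alone, and some of it may be technical. The titles give day 1, 2 and 3 for the libraries of each genotype, whereas another label gives day 1 for all. Whether the replicates differ in day cannot be told from these labels. Cultures without LPS were not analysed here, and the values describe genotypes under LPS, not a response to it.

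The libraries held 53.2 to 66.3 M estimated counts (M, 1e6), about 13.3 to 16.6 M fragments. The targeted gene Nlrp3 had 0 estimated counts in the 3 knockout libraries, against 730, 502 and 444 in the WT libraries. Levels are given in FPKM (fragments per kilobase of transcript and per 1e6 fragments), which can be compared between genes. Fold changes are knockout over WT and were taken of log2(FPKM + 1), so those of low genes are understated. A gene was tested when it reached an FPKM of 1 in at least 3 libraries, and called at an adjusted p under 0.05 (limma, Benjamini-Hochberg over 12136 genes). Of all tested genes, 10.4% were called higher and 9.2% lower in the knockout cultures. The stromal marker Col1a1 was abundant in both genotypes, with 1301 ± 75 FPKM in knockout and 1726 ± 86 in WT cultures (SD, n = 3 each). Other markers of that list were lower, down to Lepr, below the filter at 0.083 FPKM in knockout and 0.007 in WT cultures. The tested stromal markers differed between the genotypes. Thy1 stood at 11.8 ± 1.2 FPKM in knockout and 134 ± 6.2 in WT cultures, and Pdgfra at 2.96 ± 0.23 and 30.2 ± 1.7. Of 13 tested stromal markers 3 were higher and 10 lower in knockout. Among those higher, Nt5e (2.35 ± 0.27 and 0.183 ± 0.068) passed the filter only through the knockout libraries, so its difference was in part built into its testing. All 11 tested macrophage markers, of 15 listed, were higher, and the summed level of the list was 1450 to 1639 FPKM in knockout and 598 to 684 in WT libraries. In such bulk samples, fewer cells of a type and less RNA per cell cannot be told apart, and the part that the mixture of cells had in the S100 values was not tested.

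On chromosome 3 lie 9 of the members (GRCm38, coordinates of the deposited table). A block of 7 spans 185 kb: S100a1 (positions 90511034 to 90514392, minus strand), S100a13 (90514435 to 90524581, plus), S100a16 (90537254 to 90543151, plus), S100a4 (90603771 to 90606045, plus), S100a6 (90612882 to 90624181, plus), S100a8 (90668978 to 90670035, plus) and S100a9 (90692632 to 90695721, minus). About 2825 kb further on, S100a11 (93520488 to 93526287, plus) and S100a10 (93555080 to 93564643, plus) lie together beyond the epidermal genes, and S100b lies alone on chromosome 10 (76253853 to 76261159, plus). The start and end of all 10 were the same in GENCODE M21. S100a1 and S100a13 point away from each other across 42 bases. Promoter windows from RefSeq (GRCm38.p6, 250 bases before to 50 after a gene's start) matched 9 of the 10 members, S100a16 with 2 windows. Printed here, 5′ to 3′ on the gene's strand, are 5 windows: those of S100a8 (chr3:90668821-90669120) and S100a9 (chr3:90695672-90695971), of which only the first gene was found at more than trace level, both of S100a16 (chr3:90537004-90537303 and chr3:90540896-90541195), a member called higher in every setting run, and that of S100a13 (chr3:90514185-90514484), which shares 204 bases with the window of S100a1. Capitals mark matches to any of 4 motifs on either strand, and in S100a13 the 42 bases between the 2 genes.
S100a8: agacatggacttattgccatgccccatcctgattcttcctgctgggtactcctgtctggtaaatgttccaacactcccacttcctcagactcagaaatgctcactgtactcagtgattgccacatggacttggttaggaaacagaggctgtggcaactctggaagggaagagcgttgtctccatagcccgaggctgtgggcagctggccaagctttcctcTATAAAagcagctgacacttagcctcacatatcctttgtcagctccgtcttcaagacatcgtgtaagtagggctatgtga
S100a9: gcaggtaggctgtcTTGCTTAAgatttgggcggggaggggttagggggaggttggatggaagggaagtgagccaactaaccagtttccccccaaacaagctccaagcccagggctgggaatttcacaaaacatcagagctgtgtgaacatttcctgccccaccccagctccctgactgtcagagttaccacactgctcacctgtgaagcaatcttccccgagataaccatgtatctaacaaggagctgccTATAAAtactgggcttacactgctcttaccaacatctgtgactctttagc
S100a16, upstream window: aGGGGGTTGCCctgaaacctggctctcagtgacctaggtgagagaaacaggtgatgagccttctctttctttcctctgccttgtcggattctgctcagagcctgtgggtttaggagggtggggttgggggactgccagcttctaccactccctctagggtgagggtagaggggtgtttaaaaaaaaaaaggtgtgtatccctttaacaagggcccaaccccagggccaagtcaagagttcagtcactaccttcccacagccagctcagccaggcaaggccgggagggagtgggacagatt
S100a16, downstream window: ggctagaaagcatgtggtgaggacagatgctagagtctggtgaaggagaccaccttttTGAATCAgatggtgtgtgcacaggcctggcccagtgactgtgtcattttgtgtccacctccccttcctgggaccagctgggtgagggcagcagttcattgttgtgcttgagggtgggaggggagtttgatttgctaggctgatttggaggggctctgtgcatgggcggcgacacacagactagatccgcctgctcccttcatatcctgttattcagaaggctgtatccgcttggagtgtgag
S100a13: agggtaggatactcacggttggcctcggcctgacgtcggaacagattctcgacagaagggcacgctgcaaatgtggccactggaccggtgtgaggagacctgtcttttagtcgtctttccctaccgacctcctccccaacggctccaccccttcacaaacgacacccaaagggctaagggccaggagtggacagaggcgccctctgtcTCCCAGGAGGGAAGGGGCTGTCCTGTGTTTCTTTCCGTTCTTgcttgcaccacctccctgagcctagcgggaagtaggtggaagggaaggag
The motifs searched were TATAAA (the TATA box), TTGCNNAA (C/EBP type), the NF-κB type (GGG, NN, TT, N and CC in a row) and TGANTCA (AP-1 type), and no matches in these windows overlapped. TATAAA, held by 13.6% of 32851 mouse windows of the same length, began 30 bases before the start of S100a8, 31 before that of S100a4 and at that of S100a9. These starts are RefSeq's, and that of S100a8 lies inside the gene as the deposited table bounds it. The C/EBP-type motif, held by 10.8% of windows, occurred once, 236 bases before the start of S100a9. The NF-κB-type motif (4.79% of windows) was found in the upstream window of S100a16, and the AP-1-type motif (7.81%) at 1 place in its downstream window and at 2 in that of S100a11. The windows of S100a1, S100a6, S100a13 and S100b held none of the 4.

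The family was dominated by a few very abundant members, and its summed level was alike in range in both genotypes. The 10 genes together reached 2257, 1961 and 2315 FPKM in knockout libraries, against 2174, 2029 and 2472 in WT libraries, so that the groups overlapped. S100a11 and S100a4 took 80.4% to 82.5% of that sum in knockout and 74.7% to 79.8% in WT libraries. S100a11 ranked 28th among all genes by mean level in knockout and 34th in WT cultures, and S100a4 ranked 62nd and 48th. In the knockout cultures the order of levels was S100a11, S100a4, S100a6 and S100a10, then S100a13, S100a1 and S100a16, whose ranges overlapped from one to the next, then S100a8. WT cultures had the same order, but there no 2 neighbours among these 8 genes overlapped. S100b and S100a9 were at or near 0 in both, and their ranges overlapped.

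**Figure D1:**
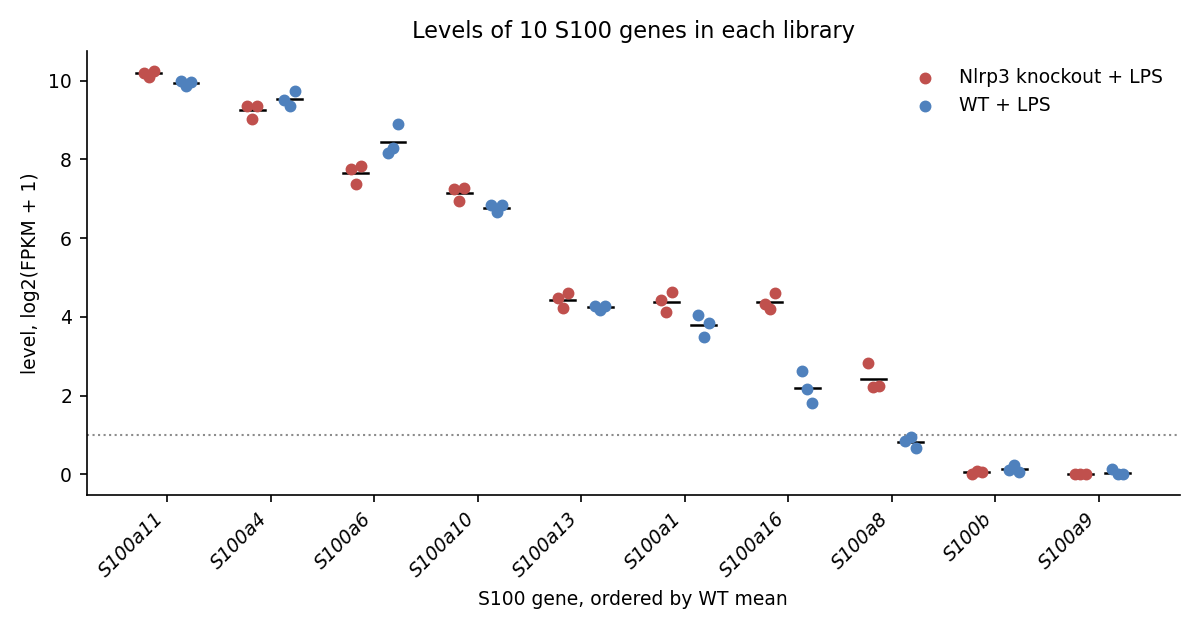
Levels of the 10 S100 genes as log2(FPKM + 1), with 1 point per library, knockout to the left of WT, and a line at the mean of 3 libraries. The dotted line marks an FPKM of 1. Knockout and WT points separate widely for S100a16 and S100a8 and less for S100a6, and S100b and S100a9 lie near 0.

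Of the 10 members, 3 passed the test, S100a16 and S100a8 higher and S100a6 lower in knockout cultures. The other 5 of the 8 tested members did not pass, and S100a9 and S100b were below the filter on low values. Over all tested genes the shares were 10.4% higher and 9.2% lower. S100a8 entered the test only through the knockout libraries, so its difference was in part built into its testing. Over the 8 tested members the log2 fold change had a median of 0.31, or 0.24 without S100a8, against 0.01 over all tested genes. The libraries of the groups did not overlap for 5 members higher and 2 lower in knockout, S100a8 among them. Among all tested genes 36.7% did not overlap (18.8% with knockout above WT, 18% below). With 3 libraries a group, the exact two-sided permutation test of a single gene cannot give less than p = 0.1, the value it gave for these 7 members.

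**Figure D2:**
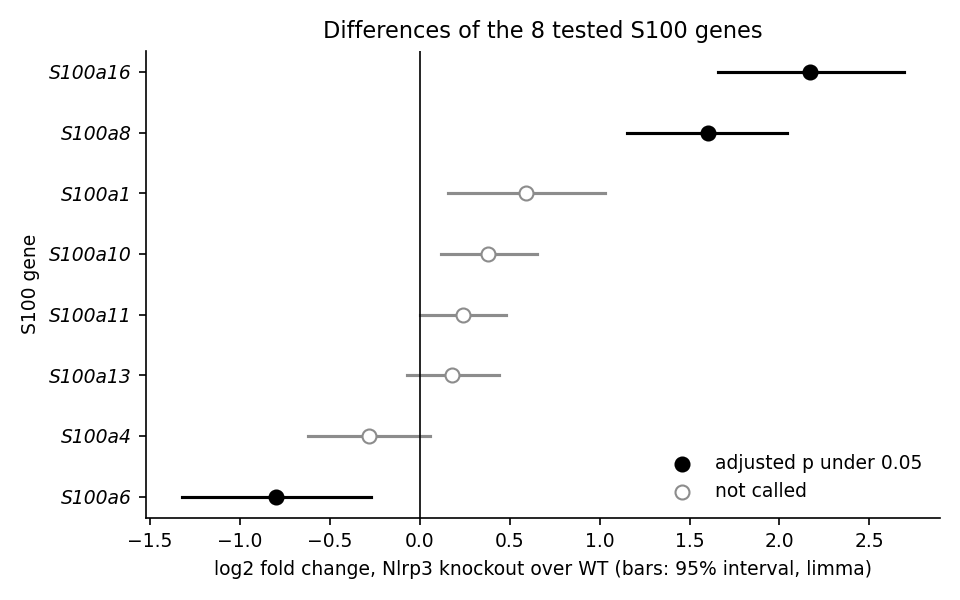
Log2 fold change of the 8 tested S100 genes, Nlrp3 knockout over WT, on the log2(FPKM + 1) scale, with 95% intervals from limma. Filled points passed an adjusted p of 0.05; S100a16 at 2.17 and S100a8 at 1.60 stand apart on the right and S100a6 at -0.80 on the left.

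The calgranulins were found in unequal amounts. S100a8, whose protein normally pairs with S100a9 in myeloid cells, stood at 6.14, 3.63 and 3.72 FPKM in knockout libraries, against 0.80, 0.95 and 0.60 in WT libraries. Every knockout library was above every WT library, at low levels in both. The mean was 5.74 times higher in knockout cultures (4.50 ± 1.42 against 0.783 ± 0.176 FPKM, SD, n = 3 each; log2 fold change 1.60 ± 0.19 SE, adjusted p = 0.00142). These values rest on about 75.5, 41 and 42.5 fragments in knockout and 9.5, 12.5 and 6.5 in WT libraries. S100a9, its partner, was listed at 0 in all 3 knockout libraries and in 2 of 3 WT libraries, and at 0.11 FPKM in WT replicate 1, which is about 1 fragment. In the knockout libraries S100a8 thus had about 159 fragments together where S100a9 had 0, a count that allows up to 3. No fold is given for S100a9.

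Markers of granulocytes, the cells in which both calgranulins are most abundant, were mostly at or near 0. Of 14 listed, 10 were below the filter, and Elane, Ngp, Cxcr2, Retnlg, Ms4a3 and Ctsg were listed at 0 in all 6 libraries. Ly6g, the defining surface marker of mouse neutrophils, stood at 0.31, 0 and 0.18 FPKM in knockout libraries, against 0.30, 0.16 and 0.20 in WT libraries. All 14 listed markers summed to 246 to 312 FPKM in knockout and 93.0 to 107 in WT libraries. The 10 below the filter, grouped by being low, summed to 0.10 to 0.46 FPKM in knockout and 0.19 to 0.49 in WT libraries. The other 4 were tested, with 3 higher and 1 lower in knockout cultures. Their part in the S100a8 difference was not tested. Lcn2, an iron-siderophore binding protein, was at 263 ± 32 FPKM in knockout and 87.6 ± 6.7 in WT cultures. The receptor Csf3r (5.40 ± 0.48 and 1.36 ± 0.14) and the collagenase Mmp8 (3.36 ± 0.45 and 0.910 ± 0.193) were higher too, whereas the antimicrobial peptide gene Camp was lower (4.60 ± 1.3 and 9.05 ± 0.06; log2 fold change -0.87, adjusted p = 0.0144). Mmp8, at 1.12, 0.74 and 0.87 FPKM in WT libraries, passed the filter only through the knockout libraries. Its difference was thus in part built into its testing. Macrophage markers moved with S100a8 (11 of 11 tested higher), and their part in the S100a8 difference was not tested. Among factors known to act at calgranulin genes, 2 of 6 tested rose and 1 fell, with a median log2 fold change of -0.12. The shares over all tested genes were 10.4% higher and 9.2% lower, with a median of 0.01. Spi1, which encodes PU.1, was at 9.15 ± 1.61 FPKM in knockout and 3.21 ± 0.15 in WT cultures (1.26, adjusted p = 0.000757), and Cebpa at 4.51 ± 0.35 and 1.95 ± 0.33 (0.91, adjusted p = 0.0015). Stat3 was at 16.4 ± 0.9 and 23.3 ± 1.0 (-0.48, adjusted p = 0.00398). Cebpb (33.0 ± 6.8 and 44.5 ± 1.9) and Cebpd (21.4 ± 3.1 and 27.8 ± 3.1) did not pass, and the granulocyte factor Cebpe was listed at 0 throughout.

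**Figure D3:**
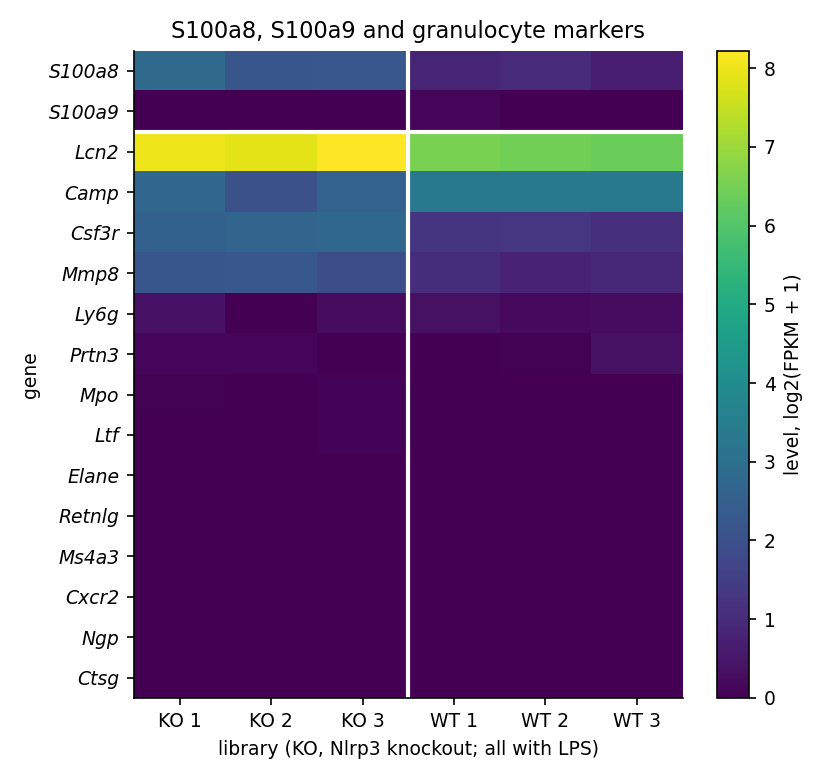
Levels of S100a8, S100a9 and 14 granulocyte markers as log2(FPKM + 1), by colour, in the 3 knockout libraries and then the 3 WT libraries. S100a8 is brighter in the knockout libraries, S100a9 is dark throughout, and 10 of the 14 markers stay at or near 0 in both genotypes.

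S100a16, a widely expressed member reported to favour adipogenic differentiation of mouse preadipocytes, had the largest log2 fold change of the tested members on the log2(FPKM + 1) scale. By the ratio of mean FPKM, S100a8 was slightly ahead of it (5.74 against 5.34). Its level was 18.97, 17.48 and 23.45 FPKM in knockout libraries, against 5.19, 3.51 and 2.51 in WT libraries. The lowest knockout library was 3.37 times the highest WT library, and WT libraries varied 2.07-fold among themselves. The mean was 5.34 times higher in knockout cultures (19.97 ± 3.11 against 3.74 ± 1.35 FPKM; log2 fold change 2.17 ± 0.22 SE, 95% interval 1.66 to 2.69, adjusted p = 0.000762). All 5 listed adipocyte markers were below the filter. Adipoq, Plin1 and Cidec were listed at 0 in every library, whereas Pparg (1.15 ± 0.23 FPKM in knockout and 0.467 ± 0.177 in WT cultures) and Fabp4 (0.803 ± 0.215 and 0.513 ± 0.091) had every knockout library above every WT library, and their part in the S100a16 difference was not tested.

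S100a13 and S100a1 are the members nearest to S100a16 on its proximal side, with S100a14 between S100a13 and S100a16, and had smaller fold changes. S100a13, which takes part in the unconventional export of FGF1, stood at 21.19, 17.62 and 23.19 FPKM in knockout libraries, against 18.51, 16.98 and 18.49 in WT libraries. The groups overlapped, and the difference did not pass (log2 fold change 0.18, 95% interval -0.07 to 0.44, adjusted p = 0.306). S100a1, known in muscle for its action on the ryanodine receptor and the SERCA pump, stood at 20.55, 16.36 and 23.65 FPKM in knockout libraries, against 15.63, 10.23 and 13.34 in WT libraries. All knockout libraries were above all WT libraries, by 1.05 times at the closest. It did not pass (0.59, interval 0.16 to 1.03, adjusted p = 0.0681), although it did in DESeq2, where 10.9% of genes were higher (adjusted p = 0.0301) and without knockout replicate 2 (limma adjusted p = 0.0485).

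S100a6, or calcyclin, and S100a4, also called fibroblast-specific protein, lie close together, with S100a5 between them in the table, and both had lower means in knockout cultures. S100a6 stood at 214.63, 166.23 and 225.46 FPKM in knockout libraries, against 285.93, 309.60 and 478.13 in WT libraries, where replicate 3 was far above the others. The groups did not overlap (202 ± 32 against 358 ± 105 FPKM; log2 fold change -0.80 ± 0.22 SE, interval -1.32 to -0.27, adjusted p = 0.0482). That call is a narrow one. It was lost without each of the 6 libraries in turn (limma adjusted p = 0.113, 0.131 and 0.0592 without knockout replicate 1, 2 and 3, and 0.0572, 0.0839 and 0.0778 without WT replicate 1, 2 and 3). It was kept in edgeR (adjusted p = 0.0369), which called 8.12% of 17479 genes lower and 8.48% higher, and in DESeq2 (adjusted p = 0.00094), which called 10.2% lower and 10.9% higher. S100a4 stood at 656.35, 522.25 and 650.13 FPKM in knockout libraries, against 719.75, 656.50 and 845.58 in WT libraries. The groups only just failed to overlap, and the difference did not pass (-0.28, interval -0.62 to 0.06, adjusted p = 0.244). Cacybp, the calcyclin binding protein, did not pass (30.5 ± 8.0 FPKM in knockout and 24.98 ± 1.31 in WT cultures, adjusted p = 0.442). Myh9, the nonmuscle myosin heavy chain that S100a4 binds, rose to 191 ± 14 FPKM in knockout cultures, against 131 ± 9 in WT cultures (0.54, adjusted p = 0.0068).

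**Figure D4:**
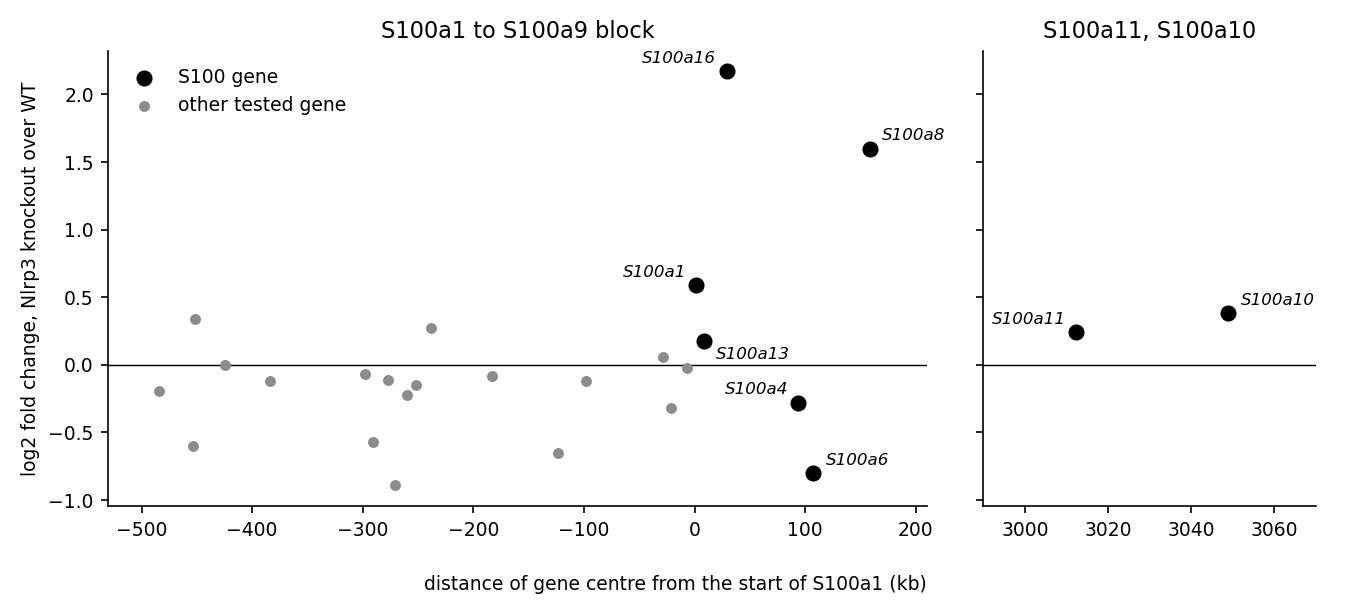
Log2 fold change, knockout over WT, against the distance of a gene's centre from the start of S100a1 in kb, for 8 tested S100 genes (large points) and 18 other tested genes (small points); 5 tested genes between the blocks are not drawn. S100a16 at 2.17 and S100a8 at 1.60 lie above every other point drawn, and S100a6 at -0.80 lies between them in position and below 0.

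The genes around the chromosome 3 members were compared as well. Of 23 tested from 500 kb before S100a1 to 500 kb after S100a10, 4 were lower in knockout cultures and 19 did not pass. The median log2 fold change was -0.12 against 0.01 over all tested genes, of which 9.2% were lower. By position, 18 of the 23 lay before S100a1 and 5 between the blocks, with none inside a block or after S100a10. Those lower were Sprr2a1, a cornified envelope gene (0.530 ± 0.243 FPKM in knockout and 3.00 ± 0.88 in WT cultures), Creb3l4 (0.507 ± 0.035 and 1.81 ± 0.38), Slc27a3 (1.59 ± 0.15 and 3.07 ± 0.31) and Rab13 (7.56 ± 1.15 and 11.6 ± 0.5). Sprr2a1 and Creb3l4 passed the filter only through the WT libraries, so their differences were in part built into their testing. All 7 listed genes that fuse an S100 domain to an epidermal repeat protein, such as filaggrin, stayed below the filter, 5 of them at 0 in every library.

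S100a10 and S100a11 are the annexin-binding members, and both had higher means in knockout cultures without passing. S100a10, or p11, binds annexin A2 and in that complex receives tissue plasminogen activator and plasminogen at the cell surface. It stood at 149.55, 122.55 and 154.67 FPKM in knockout libraries, against 112.64, 99.45 and 113.30 in WT libraries, with no overlap. The difference missed the threshold (log2 fold change 0.38, interval 0.12 to 0.65, adjusted p = 0.0572), but passed in DESeq2 (adjusted p = 0.0239) and without knockout replicate 2 (limma adjusted p = 0.0185). Anxa2 itself stood at 345 ± 35 FPKM in knockout and 327 ± 18 in WT cultures (0.07, adjusted p = 0.685). The level of S100a10 relative to Anxa2 in the same library was 0.424, 0.399 and 0.412 in knockout, against 0.333, 0.324 and 0.336 in WT libraries. That ratio did not overlap between the groups and differed by 0.31 on the log2 scale (exact two-sided permutation p = 0.1, the smallest possible). S100a11, which binds annexin A1, stood at 1170.10, 1095.25 and 1211.03 FPKM in knockout libraries, against 1015.36, 931.23 and 1000.21 in WT libraries, and did not pass (0.24, adjusted p = 0.165). Anxa1 was at 232 ± 34 FPKM in knockout and 178 ± 16 in WT cultures (0.38, adjusted p = 0.102), and the ratio of S100a11 to Anxa1 overlapped (5.08 ± 0.95 and 5.53 ± 0.29). A processed pseudogene, S100a11-ps, shares sequence with S100a11 but did not exceed 0.23 FPKM.

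Of 10 tested annexins 2 rose and 8 did not pass, with a median log2 fold change of 0.03. Among all tested genes 10.4% were higher and 9.2% lower, with a median of 0.01. Anxa8 was at 27.4 ± 2.5 FPKM in knockout and 9.35 ± 1.22 in WT cultures (log2 fold change 1.46, adjusted p = 0.000268). Anxa3 was at 55.1 ± 2.4 and 43.5 ± 1.6 (0.33, adjusted p = 0.0134); its call was lost without knockout replicate 1 or any 1 WT library (limma adjusted p = 0.0501 to 0.063). Genes of the plasminogen system that S100a10 and annexin A2 serve changed in both directions, 1 of 5 tested higher and 2 lower, with a median of -0.04. Plaur, the urokinase receptor, was at 34.4 ± 1.7 FPKM in knockout and 11.8 ± 1.1 in WT cultures (1.47, adjusted p = 7.99e-05). The activators themselves were lower, Plat with 5.04 ± 0.43 in knockout and 13.3 ± 0.7 in WT cultures (-1.25, adjusted p = 0.000131) and Plau with 37.3 ± 2.0 and 49.2 ± 1.5 (-0.39, adjusted p = 0.0074). Plasminogen itself, Plg, was listed at 0 in every library.

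Receptors for released S100 proteins were also compared. Of 10 tested, 3 rose and 1 fell, with a median log2 fold change of 0.26. Among all tested genes 10.4% were higher and 9.2% lower, with a median of 0.01. Cd14, the LPS co-receptor, was at 69.2 ± 5.8 FPKM in knockout and 35.6 ± 2.5 in WT cultures (0.94, adjusted p = 0.000611). The fatty acid receptor Cd36 (5.30 ± 1.12 and 2.30 ± 0.32; 0.92, adjusted p = 0.00652) and the sialic acid receptor Cd33 (2.26 ± 0.33 and 1.11 ± 0.05; 0.62, adjusted p = 0.00572) rose as well. All 3 receptors are also used as surface markers of myeloid cells. Fgfr1 was at 22.3 ± 0.5 and 28.1 ± 0.9 (-0.32, adjusted p = 0.0111), a call lost without knockout replicate 1 or WT replicate 3 (limma adjusted p = 0.0558 and 0.0566). Ager, which encodes RAGE, was below the filter at 0.437 ± 0.104 FPKM in knockout and 0.597 ± 0.355 in WT cultures. Tlr4 did not pass (2.59 ± 1.04 and 1.45 ± 0.53, adjusted p = 0.219), nor did Bsg, the S100a9 receptor basigin (318 ± 31 and 382 ± 82, adjusted p = 0.358).

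Inside the cell, 4 of 12 tested S100 partners rose and 8 did not pass, with a median log2 fold change of 0.13. Among all tested genes 10.4% were higher and 9.2% lower, with a median of 0.01. Besides Myh9 these were Dysf, dysferlin of membrane repair (11.04 ± 0.96 FPKM in knockout and 4.72 ± 0.27 in WT cultures; 1.07, adjusted p = 0.000315), the p53 ligase Mdm2 (17.7 ± 1.8 and 10.0 ± 0.2; 0.76, adjusted p = 0.0014) and the calcium pump Atp2a2 (91.1 ± 2.8 and 72.7 ± 5.1; 0.32, adjusted p = 0.0255). The last call was lost without knockout replicate 1 or 2 or WT replicate 1 or 3 (limma adjusted p = 0.0701 to 0.106). Other EF-hand genes went both ways, 3 of 22 tested higher and 4 lower, with a median of -0.05. Sparc, a secreted matrix protein with an EF-hand domain, was at 987 ± 80 FPKM in knockout and 1779 ± 82 in WT cultures (-0.85, adjusted p = 0.0025), Capn1, a calpain subunit, at 19.6 ± 1.5 and 31.0 ± 0.9 (-0.63, adjusted p = 0.00133) and Nucb2, nucleobindin, at 27.7 ± 5.8 and 14.2 ± 0.3 (0.90, adjusted p = 0.00675). The other 4 calls were smaller and narrow. Rcn1 (-0.34) was lost without knockout replicate 1 or WT replicate 1 or 3, Calm3 (-0.34) without any 1 library but knockout replicate 3, Myl9 (0.46) without knockout replicate 1 or any 1 WT library, and Ncs1 (0.27) without any 1 library and in edgeR (limma adjusted p between 0.0508 and 0.134 without those libraries, edgeR adjusted p = 0.0671 for Ncs1).

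**Figure D5:**
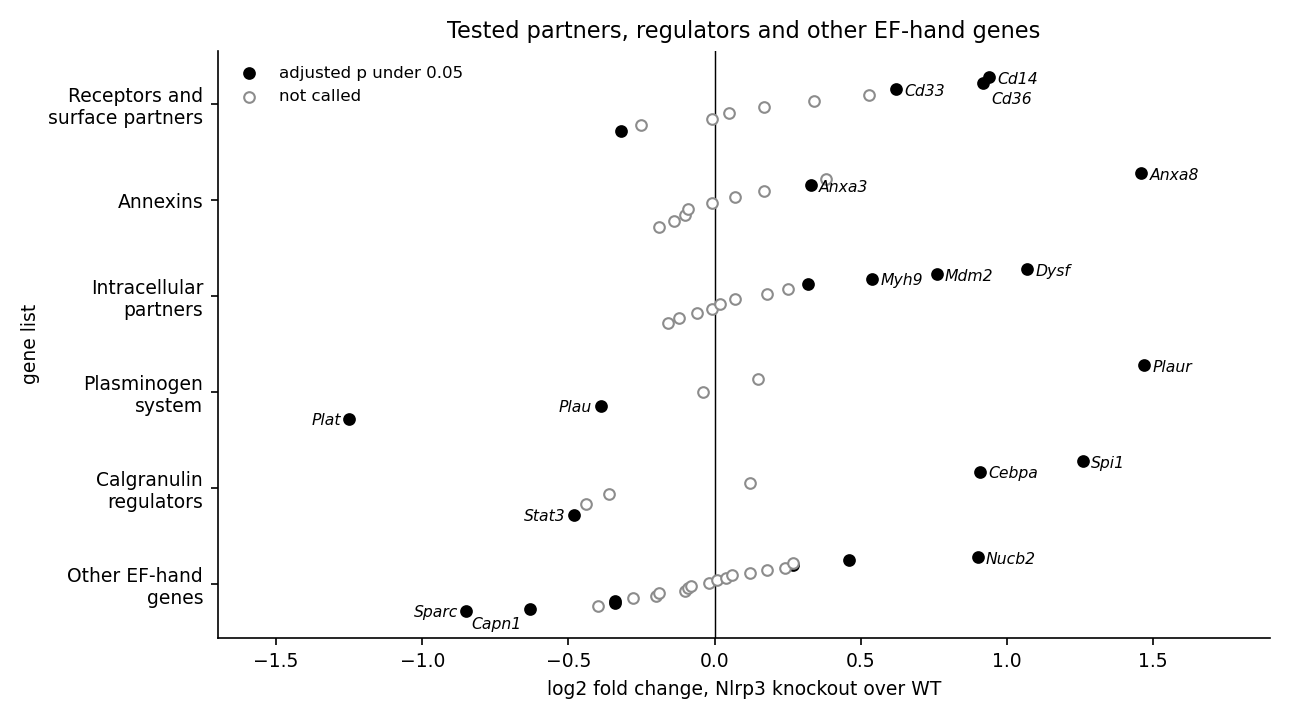
Log2 fold changes, knockout over WT, of the tested genes in 6 lists of S100 partners, regulators and other EF-hand genes, 1 point per gene. Filled points passed an adjusted p of 0.05; Plaur and Anxa8 lie farthest right, at 1.47 and 1.46, and Plat farthest left, at -1.25.

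S100b, the glial and chondrocyte member, was near 0. It stood at 0, 0.07 and 0.04 FPKM in knockout libraries, against 0.08, 0.18 and 0.04 in WT libraries, about 2.75 and 8.25 fragments in all. A difference was not detectable at this depth, and the gene overlaps Dip2a on the opposite strand (7.20 FPKM in knockout and 8.03 in WT cultures), whose reads cannot be told apart if counting ignored strand. The glial markers Sox10 and Foxd3 were listed at 0 throughout, and all 7 of that list were below the filter. Of 7 chondrocyte markers 2 were tested and went opposite ways, the cartilage collagen gene Col2a1 with 14.04 ± 0.55 FPKM in knockout and 0.280 ± 0.087 in WT cultures (3.56, adjusted p = 3.18e-06) and Sox9 with 1.02 ± 0.16 and 2.74 ± 0.29 (-0.88, adjusted p = 0.00135). Col2a1 passed the filter only through the knockout libraries. Sox9, at 0.92, 0.94 and 1.21 FPKM in knockout libraries, passed it only through the WT libraries. The differences of both were thus in part built into their testing. Acan was listed at 0 in all 6 libraries. Among 9 further genes named S100 in the table, S100g on the X chromosome alone reached an FPKM of 1 in a library, with 0, 0.49 and 0.44 in knockout and 0.76, 0.49 and 1.86 in WT libraries. The other 8 did not exceed 0.51. S100pbp, which encodes an S100 binding protein, did not pass (log2 fold change -0.16, adjusted p = 0.735).

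Genes with patterns most like those of S100a16 and S100a6 over the 6 libraries were sought among 8756 tested genes with a mean log2(FPKM + 1) of at least 2. For S100a16 these were Serpine2 (Pearson r = 0.999), Csnk1e (0.998) and Cd74 (0.997), and 480 genes exceeded an r of 0.95. The log2 fold changes of Serpine2, Csnk1e and Cd74 were 0.84, 0.26 and 0.92, against 2.17 for S100a16. Serpine2, a protease inhibitor, stood at 5.81, 5.81 and 6.24 FPKM in knockout libraries, against 3.39, 2.89 and 2.45 in WT libraries. For S100a6 they were Ada (0.993), Lgmn (0.992) and Acadvl (0.988), and 40 genes exceeded 0.95. Ada, Lgmn and Acadvl did not pass the test (limma adjusted p = 0.0964, 0.0691 and 0.146). The lysosomal protease gene Lgmn stood at 52.01, 49.36 and 52.14 FPKM in knockout libraries, against 57.53, 59.26 and 66.83 in WT libraries, with WT replicate 3 again highest. The 6 points share their genotype groups, so these values describe the libraries and carry no test.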

How the data were processed

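Polyadenylated RNA of 6 libraries was sequenced in paired reads of 150 bases, per the labels' protocols and the series text. The submitters' processing notes name cutadapt 1.9, HISAT2 2.0.4, StringTie 1.3.4d and build GRCm38; no source used here gives the counting step, annotation release or strand setting. The authors deposited FPKM values to 2 decimals and estimated counts for each gene, per the file headers. The estimated counts are whole numbers, yet 44.4% of those from 1 to 16 are multiples of 4, against 25% if even, so that 4 counts were read as about 1 fragment. Floors (3 fragments) cover counting error only.

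FPKM were tested with limma 3.58.1 (R 4.3.3; log2 with a pseudocount of 1, intensity trend, a single genotype term, two-sided tests, Benjamini-Hochberg over 12136 genes). The counts, rounded to whole numbers, were tested with edgeR 4.0.16 (quasi-likelihood) and DESeq2 1.42.0 as alternatives; other alternatives were the pseudocount, the filter, the scaling, leaving out each library and a replicate block. The scripts were tested on simulated data. Permutation tests used scipy 1.17.1. The members and lists were chosen with earlier results of these data known; lists are described by counts and medians, and 1 gene of the plasminogen list is not reported here. Genes named are all members, called genes of the lists (at most 8 per list by size of change), the annexin pairs, and the 3 genes most like the member that rose and the one that fell most; others named (Tlr4, Bsg, Ager, Cacybp, Cebpb, Cebpd, single markers and the called neighbours) were picked after their values were seen.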

Additional observations from a re-analysis of the deposited data

How the results depend on the processing

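S100a16 kept its direction and its call in all 22 settings run, the main one included (log2 fold change 1.98 to 2.44), and S100a8 in all 19 in which it passed the filter (1.40 to 2.45). Without any 1 knockout library S100a8 fell below a filter recomputed on 5 libraries; with the filter of all 6 kept, a setting chosen after seeing the data, it was called. S100a6 kept its direction (-0.94 to -0.57), and the number of S100 genes lower was 0, against 1, without any 1 library, with the FPKM filter at 0.1 (0) and with no filter (0), settings that also change the number of genes tested. That number was also 0 without any 1 library when the filter of all 6 was kept and 12136 genes were tested (limma adjusted p for S100a6 0.0554 to 0.127). The number of S100 genes higher was 4 in DESeq2 and 4 with the replicate block, S100a1 and S100a10 being added, and with 1 library left out it was 1 to 3, or 2 to 4 with the filter kept. Over all genes, DESeq2 called 1908 higher and 1776 lower of 17479 tested (10.9% and 10.2%). The main test called 1264 and 1117 of 12136 (10.4% and 9.2%). With 1 library left out the number higher was 705 to 1464 and the number lower 583 to 1281, or, with the filter kept, 868 to 1685 and 721 to 1314. With the filter recomputed, a number moved by over 1.5 times without knockout replicate 1 (705 higher) and without WT replicate 1, 2 or 3 (583, 675 and 640 lower). With the filter kept, this held only without WT replicate 1 (721 lower). Fold changes of S100a16 and S100a8 understate their size at a pseudocount of 1: edgeR gave 2.40 and 2.44. Rescaling by medians shifted no library by more than 0.012 on the log2 scale. In the other rescaling (TMM, a trimmed mean of ratios) the factors of the libraries were 0.981 to 1.019.

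The titles number the libraries of each genotype as day 1, 2 and 3, whereas another label gives day 1 for all. Same-numbered libraries deviated together with r = 0.02, 0.168 and 0.096. Replicates 2 and 3 of both genotypes correlated best with their own number. Knockout replicate 1 was tied between WT replicates 1 and 2 (0.02), and WT replicate 1 correlated best with knockout replicate 3 (0.081). These low values cannot settle whether the libraries were paired, and the number was not taken to pair them. With the replicate block 1106 genes were higher and 980 lower, and S100a1 (adjusted p = 0.0241) and S100a10 (0.0216) passed in limma; S100a16, S100a8 and S100a6 stayed called. Depth limits S100b, S100a9 and, in WT libraries, S100a8, with at most 12.5 fragments each.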

Other observations

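Ratios between members that lie close together within a library were compared after their values had been seen, and are given as values. S100a16 relative to S100a13, 12672 bases apart on the same strand, was 0.895, 0.992 and 1.01 in knockout libraries, against 0.280, 0.207 and 0.136 in WT libraries. S100a6 relative to S100a4, 6836 bases apart on the same strand, was 0.327, 0.318 and 0.347 in knockout libraries, against 0.397, 0.472 and 0.565 in WT libraries. Neither ratio overlapped between the genotypes.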
